A study of Caenorhabditis elegans with 16 samples.

Results

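The *fbxb* and *fbxc* genes of *Caenorhabditis elegans* are 169 of the 46904 genes in the deposited count table, 113 named *fbxb* and 56 named *fbxc*. They were taken by WormBase symbol alone (*fbxb-* or *fbxc-* followed by a number), a rule that uses no expression value. Earlier results of these data were known when the members were chosen. Of the members, 17 are annotated as pseudogenes. RNA-seq reads had been counted per gene in 4 genotypes with 4 libraries each. *pals-25(jy111)* animals carry a premature stop codon in *pals-25* and are described by the study as a gain of function. *pals-22(jy3)* animals carry a splice acceptor mutation in *pals-22* and are a loss of function. The *pals-22(jy3) pals-25(jy9)* animals, called the double mutant below, carry the same *pals-22* mutation together with a missense change in *pals-25* that removes its function. WT animals are the N2 strain. Each library came from a pool of synchronized whole animals at the L4 larval stage on a diet of *Escherichia coli*, with no infection or drug in any group. The *jy111*, double mutant and WT animals were grown for 44 h and the *jy3* animals for 48 h, so the *pals-22(jy3)* single mutant and the longer growth cannot be told apart. Each mutant line is one strain, and every cell of the animal carries its mutations.

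F-box proteins are the substrate receptors of SCF ubiquitin ligases. The F-box binds a Skp1-related adaptor (SKR in the worm), which joins the receptor to a cullin and a RING subunit, and a second domain of the F-box protein holds the protein to be ubiquitinated. Nematodes have greatly expanded F-box families that are sorted into *fbxa*, *fbxb* and *fbxc* by that second domain. The targets of most of these receptors are not known. PALS-22 and PALS-25 are encoded by neighbouring genes and act in opposite ways on the intracellular pathogen response, a transcriptional program that is also turned on by microsporidia and by the Orsay virus and that includes the cullin CUL-6 and the adaptors SKR-3, SKR-4 and SKR-5.

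Library totals ran from 14028579 counts (WT replicate 1) to 34151410, with group medians of 25153360 in *jy111*, 29520464 in *jy3*, 25858146 in the double mutant and 25112352 in WT. Levels are given below in CPM (counts-per-million units), from the library total and the TMM factor of all 16 libraries. The *pals-22* transcript averaged 9.53 ± 0.675 CPM in *jy111*, 20.9 ± 2.81 CPM in *jy3*, 6.37 ± 0.754 CPM in the double mutant and 4.25 ± 0.676 CPM in WT (SD, n = 4 each). All the alleles are small changes that leave the gene in place, so the level of the mutated gene is no check of a label. Replicates of 1 genotype differed in germ-line markers. The summed level of 5 germ-line markers was 1056, 357.7, 680.8 and 535.3 CPM in *jy111* replicates 1 to 4, 712.9, 235.3, 353.9 and 182.6 CPM in *jy3*, 771.8, 708.8, 565 and 914.9 CPM in the double mutant, and 790.4, 374.2, 476.5 and 451.6 CPM in WT. Replicate 1 was the highest library of *jy111*, *jy3* and WT in this sum. In such bulk samples fewer cells of a type and less RNA per cell cannot be told apart.

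Most members were not expressed at a measurable level in L4 animals. Over all 16 libraries together, 61 members (53 *fbxb* and 8 *fbxc*) had no count and 50 (36 *fbxb* and 14 *fbxc*) had 1 to 10 counts. Another 31 members had 11 to 100 counts, and 27 had more than 100, of which 4 were *fbxb* and 23 were *fbxc*. All members together took between 0.00743% and 0.0257% of the counts of a library. A gene entered a test when it had at least 0.5 CPM in at least 4 of the 8 libraries compared, which 22 members did in at least 1 comparison: 19 *fbxc* genes and the *fbxb* genes *fbxb-24*, *fbxb-36* and *fbxb-38*. At this depth a zero in the remaining members means that no read was counted, and it does not show that a gene is silent.

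The *fbxc* family carried most of the signal. Its summed level ran from 77.2 to 90.3 CPM in *jy111*, 184.6 to 242.5 CPM in *jy3*, 94.4 to 103.9 CPM in the double mutant and 75.2 to 101.5 CPM in WT. The 4 *jy3* libraries stood above all the others. Per kilobase of exon, the highest members in WT were *fbxc-3* (17.1 CPM per kb), *fbxc-4* (10.99 CPM per kb), *fbxc-1* (10.7 CPM per kb), *fbxc-52* (8.20 CPM per kb) and *fbxb-72* (7.32 CPM per kb). The value of *fbxb-72* came from a single library and is described further on. *fbxc-3* took the largest share of the *fbxc* sum in every library, between 16.1% and 27.7%.

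The comparison of *pals-22(jy3)* with WT asks which receptors change when PALS-22 is lost. In the edgeR fit of the members that passed the filter, *fbxc* genes rose and none of the tested members was called lower. The risers were *fbxc-1*, *fbxc-2*, *fbxc-3*, *fbxc-4*, *fbxc-5*, *fbxc-19*, *fbxc-20*, *fbxc-23*, *fbxc-52* and *fbxc-58*, that is 10 of the 22 members tested (45.5%), at an adjusted p under 0.05 in the edgeR quasi-likelihood test. Over all 14803 genes tested, 9.97% were called higher and 11.3% lower. The tandem copies *fbxc-1* to *fbxc-5*, described further on, may share reads. They need not be separate risers in this count or in those of the later comparisons. One of the 10, *fbxc-19*, passed the filter only through the *jy3* libraries, and without it the count was 9 of 21 (42.9%). At an unadjusted p under 0.05, 12 members were higher and 0 lower. For this unadjusted level, here and below, the share of all genes was not counted. DESeq2 and limma-voom called none lower either, beside 11.3% and 11.8% of all genes. The median log2 fold change was 0.67 over the 22 members and −0.09 over all genes tested. In all 10 the lowest *jy3* library lay above the highest WT library. These 10 were picked by the same test, so this describes them and adds no support. The share of all genes without overlap was not counted. None of the 3 *fbxb* genes tested passed. In the edgeR fit with the replicate number as a block, 13 members were higher. The added ones were *fbxc-43*, *fbxc-50* and *fbxc-54*, with adjusted p of 0.011, 0.026 and 0.023. In the same blocked fit 14.4% of all genes were higher and 20.4% lower.

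**Figure D1:**
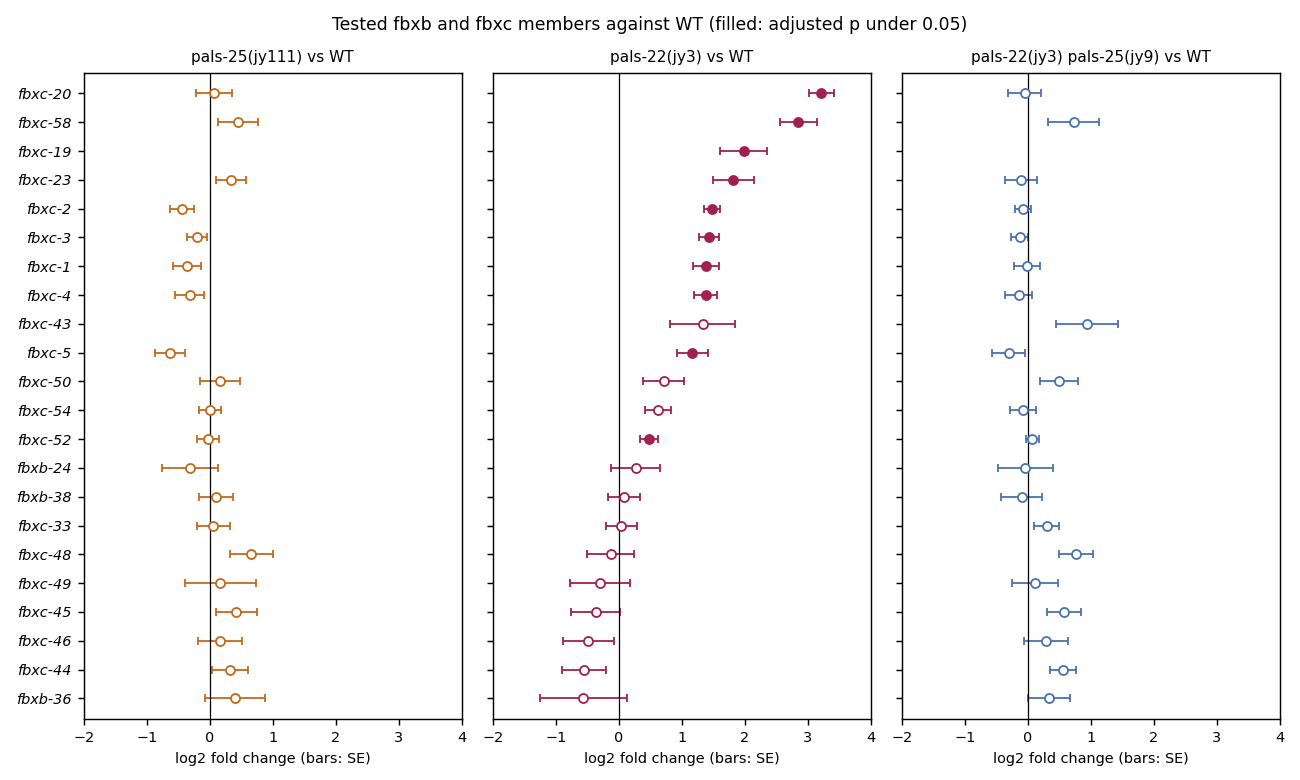
Log2 fold change against WT (x axis, bars show the SE) of the 22 tested members (y axis) in *pals-25(jy111)*, *pals-22(jy3)* and the *pals-22(jy3) pals-25(jy9)* double mutant, from the edgeR fits, with filled points at an adjusted p under 0.05. The 10 filled points are all in the *pals-22(jy3)* panel and lie between 0.48 and 3.22, and a member with no point did not reach the level tested in that comparison.

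Among the members tested, *fbxc-20* had the largest log2 fold change. It had 7.56, 8.94, 7.05 and 10.2 CPM in *jy3* libraries, against 1.01, 0.916, 0.886 and 0.651 CPM in WT libraries. On the log2 scale it rose by 3.22 (SE 0.20, adjusted p = 1.5e-05). Levels in the other mutants overlapped the WT range, with means of 0.895 ± 0.295 CPM in *jy111* and 0.859 ± 0.225 CPM in the double mutant (SD, n = 4 each). *fbxc-20* lies on chromosome II at 2419136 to 2420793 (plus strand, WBcel235) and shares 233 exon bases with *F42G2.7* on the same strand. *F42G2.7* also rose in *jy3* (log2 fold change 3.66, adjusted p = 4.4e-05), and no source states how reads in the shared stretch were assigned.

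*fbxc-58* was second. Its levels were 10.2, 19.6, 11.4 and 12.1 CPM in *jy3*, against 1.44, 2.37, 1.25 and 1.91 CPM in WT. The change was 2.85 on the log2 scale (SE 0.29, adjusted p = 0.000271). The *jy3* and WT groups were far apart, and within *jy3* the replicate 2 library was higher than the other libraries. The same library number was highest in *jy111*, where *fbxc-58* had 1.79, 3.71, 2.05 and 1.99 CPM, while in the double mutant it had 1.64, 3.47, 1.88 and 5.03 CPM with replicate 4 at the top. *fbxc-20* and *fbxc-58* were the only members with both an adjusted p under 0.05 and a log2 fold change above 2, which 3.1% of all genes tested reached.

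*fbxc-23* had 3.53, 9.12, 5.81 and 7.91 CPM in *jy3*, against 1.30, 1.83, 2.22 and 1.69 CPM in WT (log2 fold change 1.82, SE 0.32, adjusted p = 0.00501). *fbxc-19* had 0.504, 1.05, 0.980 and 1.18 CPM in *jy3*, against 0.289, 0.229, 0.121 and 0.260 CPM in WT (log2 fold change 1.98, SE 0.38, adjusted p = 0.00667). *fbxc-19* entered the test only through the *jy3* libraries, since every WT library lay under 0.5 CPM, so its call rests on the group in which it was high. *fbxc-52* changed least among the called members. It had 13.8, 20.98, 17.8 and 19.9 CPM in *jy3*, against 11.7, 13.6, 12.7 and 11.6 CPM in WT. The *jy3* replicate 1 library was only just above the highest WT library, and the change was 0.48 on the log2 scale (SE 0.14, adjusted p = 0.0482). This call was lost with limma-voom (adjusted p = 0.107) and in 7 of the 8 fits that left out 1 library, with adjusted p up to 0.127, whereas with the replicate block it was 0.0125.

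**Figure D2:**
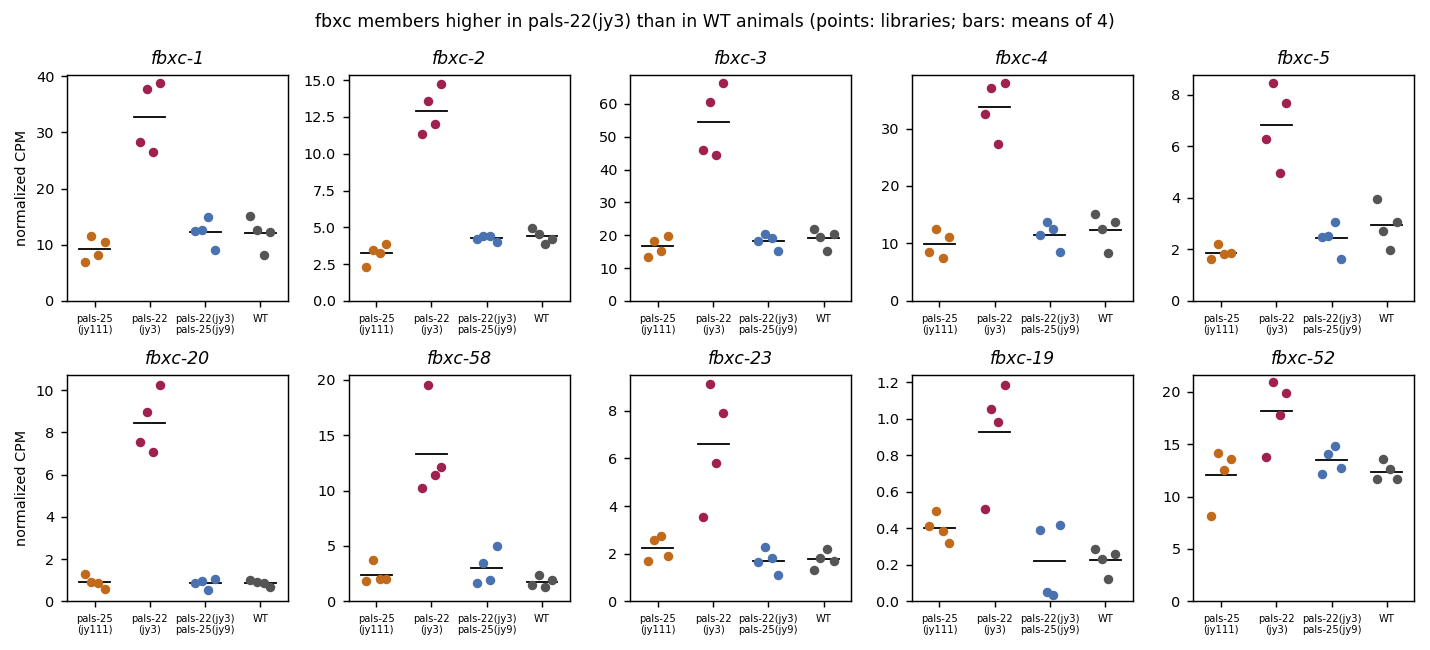
CPM (y axis, scales differ between panels) of the 10 members called in *pals-22(jy3)* against WT, with 1 point per library in *pals-25(jy111)*, *pals-22(jy3)*, the double mutant and WT and bars at the mean of 4. In every panel the *pals-22(jy3)* points lie above all WT points, most widely for *fbxc-20* (means of 8.45 and 0.866 CPM). The members shown were picked by this same comparison.

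Of the called members 5 are neighbours. *fbxc-1*, *fbxc-2*, *fbxc-4*, *fbxc-5* and *fbxc-3* stand in this order on the plus strand of chromosome IV within 891239 to 911196 (WBcel235), the longest run of members in the genome. Between them alternate *fbxc-9*, *fbxc-10*, *fbxc-11* and *fbxc-12*, and *fbxc-8* closes the run, so the 10 genes form 5 tandem pairs. The repeat from 1 pair to the next is 4152 to 4153 bases, with exon lengths of 1128 and 1413 bases for the 2 kinds of gene and gaps of 191 and 803 to 804 bases between them. The copies have the same lengths and spacing, so near-identical sequence may let reads match several of them, and the way multi-matching reads were treated is not stated in the labels or the methods. Values of single copies are uncertain, and the sum over copies is less so.

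The summed level of *fbxc-1* to *fbxc-5* was 140.6 ± 24.5 CPM in *jy3* and 51.0 ± 9.93 CPM in WT (SD, n = 4 each). It was 40.95 ± 7.59 CPM in *jy111* and 48.8 ± 7.33 CPM in the double mutant. *fbxc-3*, the most abundant copy, had 46.04, 60.6, 44.5 and 66.3 CPM in *jy3*, against 21.9, 19.5, 15.1 and 20.5 CPM in WT. No *jy3* library of *fbxc-3* came near the WT range (log2 fold change 1.43, SE 0.16, adjusted p = 0.000477). *fbxc-2* was the copy with the smallest SE, at 11.3, 13.6, 11.99 and 14.8 CPM in *jy3*, against 4.98, 4.54, 3.87 and 4.21 CPM in WT (log2 fold change 1.48, SE 0.13, adjusted p = 0.000102). *fbxc-1* had 28.3, 37.7, 26.5 and 38.7 CPM in *jy3*, against 15.1, 12.6, 8.14 and 12.3 CPM in WT. The change was 1.38 on the log2 scale (SE 0.20, adjusted p = 0.00175).

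*fbxc-4* was close to *fbxc-1* in both level and change, with 32.5, 37.1, 27.3 and 37.9 CPM in *jy3*, against 15.1, 12.5, 8.26 and 13.8 CPM in WT. *fbxc-5* was the least abundant copy, at 6.27, 8.44, 4.98 and 7.69 CPM in *jy3*, against 3.97, 2.71, 1.97 and 3.08 CPM in WT. Their log2 fold changes were 1.38 (SE 0.19, adjusted p = 0.00123) for *fbxc-4* and 1.17 (SE 0.24, adjusted p = 0.0108) for *fbxc-5*. The 5 copies kept a similar share of their sum in all 16 libraries. Over all libraries *fbxc-3* held 35.6% to 42.4%, *fbxc-1* 21% to 27.5%, *fbxc-4* 20.7% to 26.1%, *fbxc-2* 7.1% to 10.5% and *fbxc-5* 4.0% to 6.5%. The alternating copies were present in few reads, with 226 counts in *jy3*, 45 in *jy111*, 38 in the double mutant and 48 in WT for *fbxc-8* to *fbxc-12* together, and none was tested. Their summed level was 1.81 ± 0.458 CPM in *jy3* and 0.550 ± 0.0730 CPM in WT (SD, n = 4 each). Outside the run, *mak-2* was at a log2 fold change of −0.03 (adjusted p = 0.857) in *jy3* against WT, while *Y55F3BR.1* rose by 0.63 (adjusted p = 0.000973) and *F58H7.5* by 1.95 (SE 0.37, adjusted p = 0.00675).

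**Figure D3:**
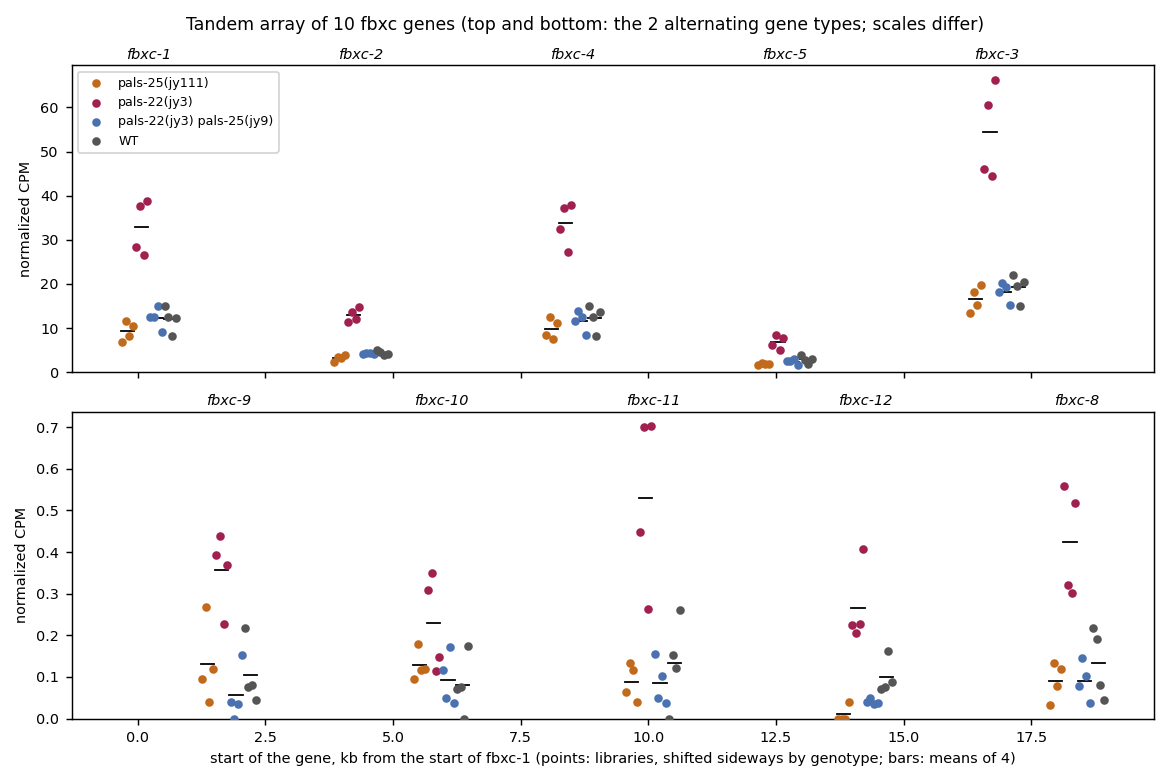
CPM (y axis, separate scales for the abundant and the rare copies) of the 10 tandem *fbxc* genes on chromosome IV in their order along the chromosome (x axis), with 1 point per library and the 4 genotypes side by side. The *pals-22(jy3)* points stand above the WT points at *fbxc-1*, *fbxc-2*, *fbxc-4*, *fbxc-5* and *fbxc-3*, where the 5 genes summed to 140.6 CPM in *pals-22(jy3)* and 51.0 CPM in WT.

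The comparison of *pals-22(jy3)* with the double mutant asks how much of the change needs *pals-25*. Of the 22 members tested, 8 were higher in *jy3* (36.4%) and 0 lower by edgeR, beside 11.3% and 11.1% of all 14878 genes. Again these were *fbxc-1* to *fbxc-5*, *fbxc-20*, *fbxc-23* and *fbxc-58*, and the median log2 fold change over the members was 0.39, against −0.09 over all genes. At an unadjusted p under 0.05, 11 members were higher and 3 lower. DESeq2 and limma-voom each called *fbxc-44* lower, beside 12.4% and 11.4% of all genes. *fbxc-20* differed by 3.26 on the log2 scale (SE 0.24, adjusted p = 6.5e-05) and *fbxc-3* by 1.54 (SE 0.16, adjusted p = 0.00039). *fbxc-3* had 46.04, 60.6, 44.5 and 66.3 CPM in *jy3*, against 18.3, 20.3, 19.3 and 15.2 CPM in the double mutant. *fbxc-23* was higher by 1.91 (SE 0.35, adjusted p = 0.00612) and *fbxc-58* by 2.11 (SE 0.40, adjusted p = 0.00721). Of the 8, *fbxc-20* and *fbxc-58* were past a log2 fold change of 2, as were 3.19% of all genes. The values of *fbxc-19* and *fbxc-52* were 1.99 (SE 0.66, adjusted p = 0.0644) and 0.39 (SE 0.15, adjusted p = 0.0985), which did not pass. *fbxc-19* was called higher by DESeq2 (adjusted p = 0.0219), limma-voom (0.0408) and the fit of all 16 libraries (0.00965), and *fbxc-52* by DESeq2 (0.0261).

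In the double mutant against WT, 0 of 21 members tested were higher and 0 lower by edgeR, beside 2.61% and 6.07% of all 14551 genes. At an unadjusted p under 0.05, *fbxc-44* and *fbxc-48* were higher and none was lower. DESeq2 called 1 member, *fbxc-48*, higher, beside 8.1% of all genes. Log2 fold changes ran from −0.30 (*fbxc-5*) to 0.94 (*fbxc-43*), with a median of 0.07. None of the members that rose in *jy3* and were tested here passed. *fbxc-2* had 4.22, 4.44, 4.45 and 4.04 CPM in the double mutant, against 4.98, 4.54, 3.87 and 4.21 CPM in WT, which is a full overlap. *fbxc-58* had the largest difference from WT among those of them that were tested, 0.73 on the log2 scale (SE 0.40, adjusted p = 0.275). The comparisons of *jy3* with the double mutant and with WT share the *jy3* libraries, so their values are given side by side and not as independent results.

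The comparison of *pals-25(jy111)* with WT asks what the altered PALS-25 does while PALS-22 is intact. By edgeR, 0 of the 20 members tested were higher and 0 lower, beside 2.33% and 1.41% of all 14671 genes. DESeq2 and limma-voom also called 0, beside 3.77% and 2.18% of all genes higher and 3.04% and 1.46% lower. At an unadjusted p under 0.05, 0 members were higher and 2, *fbxc-2* and *fbxc-5*, were lower. With the replicate block, *fbxc-45*, *fbxc-48* and *fbxc-58* were higher at this unadjusted level, and still no member passed after adjustment. *fbxc-2* had 2.33, 3.49, 3.25 and 3.86 CPM in *jy111*, against 4.98, 4.54, 3.87 and 4.21 CPM in WT. The highest *jy111* library (3.864 CPM) lay only just under the lowest WT library (3.868 CPM). The log2 fold change of −0.44 (SE 0.19) had an adjusted p of 0.341. *fbxc-5* was at −0.63 (SE 0.24, adjusted p = 0.267) and *fbxc-3* at −0.21 (SE 0.16, adjusted p = 0.651). *fbxc-20* had 1.28, 0.895, 0.852 and 0.558 CPM in *jy111*, against 1.01, 0.916, 0.886 and 0.651 CPM in WT, a difference of 0.07 on the log2 scale (SE 0.29, adjusted p = 0.948). The largest value of any member was 0.66, for *fbxc-48*.

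The difference between the mutants was tested directly in *jy3* against *jy111*. Of 22 members, 8 were higher in *jy3* (*fbxc-1* to *fbxc-5*, *fbxc-20*, *fbxc-23* and *fbxc-58*) and 0 lower by edgeR, beside 7.48% and 6.11% of all 14847 genes. At an unadjusted p under 0.05, 11 were higher and 0 lower. DESeq2 and limma-voom also called none lower, beside 8.7% and 6.07% of all genes. Of the 8, *fbxc-20* and *fbxc-58* were past a log2 fold change of 2, as were 1.91% of all genes. *fbxc-1* had 28.3, 37.7, 26.5 and 38.7 CPM in *jy3*, against 6.89, 11.5, 8.25 and 10.5 CPM in *jy111* (log2 fold change 1.75, SE 0.22, adjusted p = 0.00152). *fbxc-20* differed by 3.17 (SE 0.26, adjusted p = 0.000174) and *fbxc-58* by 2.42 (SE 0.32, adjusted p = 0.00238). The call for *fbxc-23*, at 1.495 (SE 0.33, adjusted p = 0.0216), was lost without *jy111* replicate 3 or replicate 4, where the adjusted p was 0.0524 and 0.0619. The block on replicate number changed this comparison most. It gave 12 members higher, adding *fbxc-19*, *fbxc-50*, *fbxc-52* and *fbxc-54*, and 5 lower, namely *fbxb-36*, *fbxc-44*, *fbxc-45*, *fbxc-46* and *fbxc-48*. Over all genes the block raised the calls to 2715 higher (18.3%) and 4329 lower (29.2%), so the 5 of 22 members called lower were not above that share.

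Values follow for members of this group, which was picked out after its values were seen. The mean of the double mutant was the highest of the 4 genotypes in 7 of the 22 tested members, that of *jy3* in 15, and those of *jy111* and WT in 0. *fbxc-44* had 6.66, 2.50, 4.53 and 4.42 CPM in *jy111*, 4.23, 1.61, 3.17 and 1.48 CPM in *jy3*, 5.55, 4.53, 4.68 and 7.35 CPM in the double mutant, and 4.18, 2.86, 3.75 and 3.91 CPM in WT. Replicate 1 of *jy111*, *jy3* and WT was the highest of its group, as it was in the germ-line marker sum given above. *fbxc-45* had 7.21, 3.13, 5.42 and 3.94 CPM in *jy111*, 5.21, 2.13, 3.05 and 1.59 CPM in *jy3*, 7.07, 4.53, 4.41 and 6.70 CPM in the double mutant, and 5.77, 3.02, 3.10 and 3.08 CPM in WT. The annotated pseudogene *fbxb-36*, which shares 838 exon bases with *F07E5.13* on the same strand, had 2.58, 0.351, 0.641 and 0.333 CPM in *jy3*, against 2.15, 2.07, 1.30 and 1.75 CPM in the double mutant. Here *jy3* replicate 1 was above every double mutant library and the other *jy3* libraries were below them all. In *jy3* against the double mutant, *fbxc-44* was at −1.11 on the log2 scale (SE 0.37, adjusted p = 0.065). Without *jy3* replicate 1, *fbxb-36*, *fbxc-44*, *fbxc-45* and *fbxc-48* were called lower in this comparison. The share of all genes called lower in that fit was not counted, so these calls are not a result about the members. Of the 5 germ-line markers, *him-3* and *htp-3* were lower in *jy3* than in the double mutant and none was called in the other comparisons. The part of germ-line content in these 5 members was not tested.

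**Figure D4:**
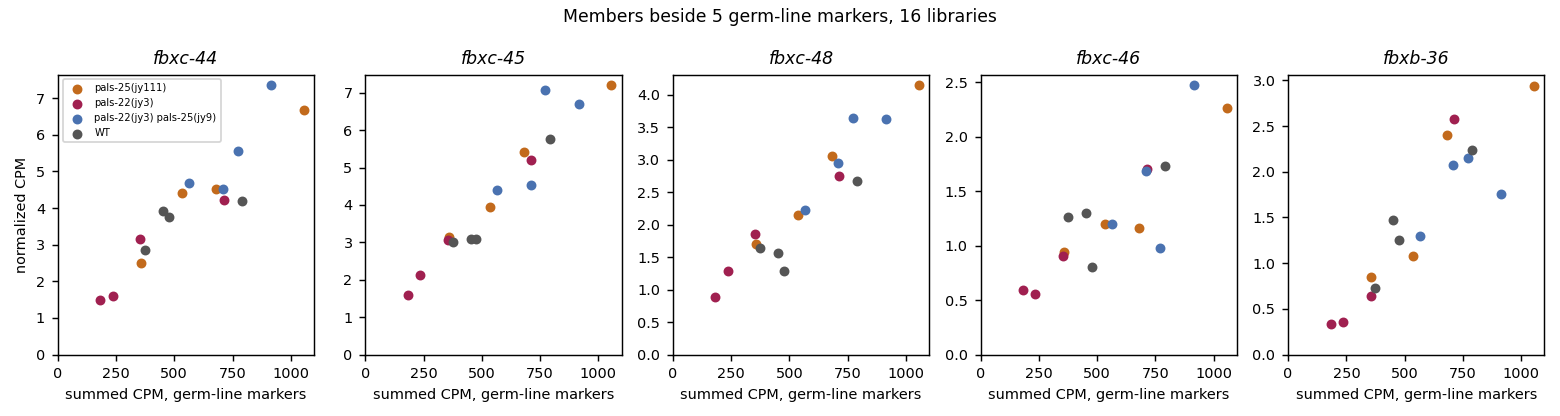
Summed CPM of 5 germ-line markers (x axis) against the CPM of single members (y axis) in all 16 libraries, coloured by genotype. The *pals-22(jy3)* libraries run from 182.6 to 712.9 CPM in the marker sum and the double mutant libraries from 565 to 914.9 CPM, and the libraries high in the sum are also high in *fbxc-44* and *fbxc-45*.

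Most *fbxb* genes were too rare to be tested, and some of these had most of their reads in *jy3*. They were named after their values were seen, and the ratios below compare summed counts corrected for library size, with exact 95% intervals that cover counting error only. *fbxb-98* had 16, 19, 14 and 20 counts in the *jy3* libraries, against 0, 0, 0 and 1 count in the WT libraries. The *jy3* to WT ratio was 49.1 (95% interval 8.53 to 1968), the double mutant had 1 count and *jy111* had 0. *fbxb-65* had 9, 13, 11 and 13 counts in *jy3*, against 1, 0, 0 and 0 in WT, with a ratio of 32.7 (5.59 to 1321). Against *jy111*, where neither gene had a count, and with a floor of 3 counts over the group, *fbxb-98* was at least 19.5-fold higher and *fbxb-65* at least 12.99-fold higher in *jy3*. *fbxb-102* had 6, 9, 4 and 8 counts in *jy3*, against 1, 0, 0 and 1 in WT (ratio 9.61, 2.42 to 83.4). *fbxb-87* had 5, 17, 13 and 10 counts in *jy3*, against 1, 3, 0 and 2 in WT (ratio 5.34, 2.27 to 15.3). In each of the 4 genes every *jy3* library had more counts than any WT library. These genes were picked for their reads in *jy3*, so this describes them and adds no support. The share of all rare genes without overlap was not counted. Without the filter on low counts the edgeR adjusted p in *jy3* against WT was 0.00084 for *fbxb-98*, 0.0043 for *fbxb-65* and 0.029 for *fbxb-102*, whereas *fbxb-87* did not pass. The pseudogene *fbxc-6*, with 62 counts in *jy3* and 12 in WT, had a ratio of 3.68 (1.96 to 7.50) and an adjusted p of 0.015 in the same fit.

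**Figure D5:**
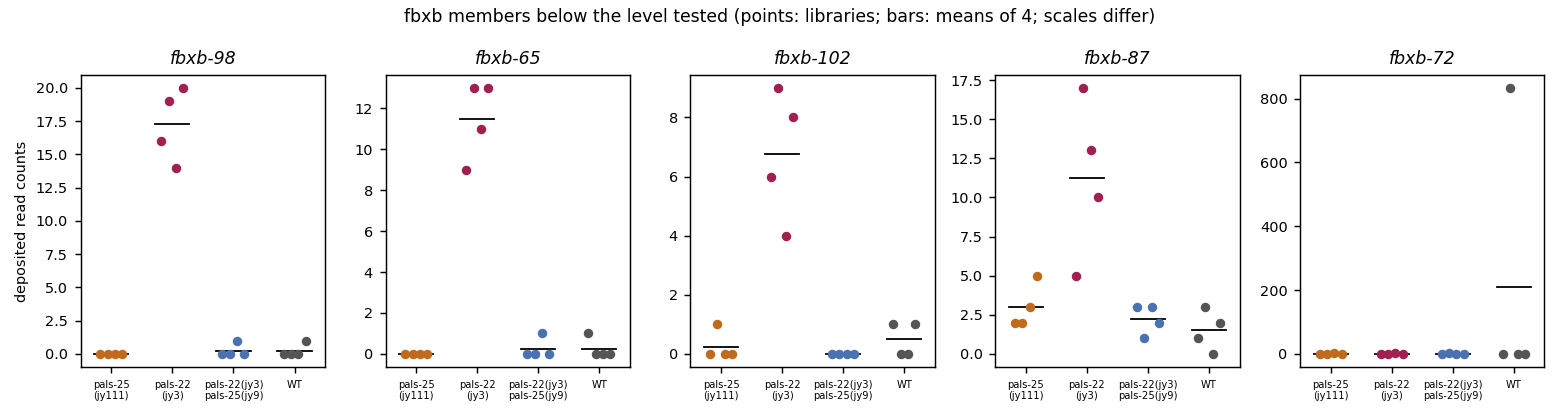
Deposited read counts (y axis, scales differ) of 5 *fbxb* genes below the level tested, with 1 point per library in the 4 genotypes and bars at the mean of 4. *fbxb-98*, *fbxb-65*, *fbxb-102* and *fbxb-87* have most of their counts in *pals-22(jy3)* (69, 46, 27 and 45), whereas 834 of the 845 counts of *fbxb-72* are in 1 WT library.

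*fbxb-72*, on chromosome V from 722646, stood apart from the other members. WT replicate 2 held 834 of its 845 counts (98.7%), a level of 31.8 CPM, and every other library held 0 to 2 counts. In that library it made up 87.1% of the *fbxb* sum, which was 36.6 CPM there and 4.51 to 6.99 CPM in the other 15 libraries. Any summed *fbxb* level of WT therefore depends on 1 library, and *fbxb-72* was in no test because it passed 0.5 CPM in that library alone. Its neighbour *srbc-40* was also highest there, at 1.87 CPM against 0, 0.0806 and 0 CPM in WT replicates 1, 3 and 4. The neighbour *icl-1* was not, at 1303 CPM against 1657, 1753 and 1240 CPM. The cause was not tested.

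Outside the tandem run the called members were single genes scattered on chromosomes II and IV, and the calls among their neighbours differed. Up to 3 genes on each side were looked at. *fbxc-20* had 4 tested neighbours, all higher in *jy3* than in WT, beside 9.97% of all genes. Among them were *F42G2.5* at a log2 fold change of 1.96 (adjusted p = 0.000136) and *F42G2.2* at 0.83 (adjusted p = 0.00976). Another, *F42G2.7*, shares exon bases with *fbxc-20*. It lay under 0.5 CPM in every WT library and entered the test only through *jy3*. Of the 169 members, 103 lie on chromosome II. *fbxc-23* (chromosome II, 13595003 to 13596555, minus strand) lies beside *gst-20*, which was at a log2 fold change of 0.90 in *jy3* against WT (adjusted p = 0.0309), and *csc-1*, at −0.09. *fbxc-58* (chromosome IV, 9371508 to 9373206, plus strand) lies beside *pezo-1*, at −0.11, and *C10C5.3*, at 0.37, with *C10C5.4* at 1.07 (adjusted p = 0.0225). *fbxc-52* (chromosome II, 3717261 to 3719764, plus strand) had 1 tested neighbour, *C46E10.1*, at −0.62 (adjusted p = 0.505). *fbxc-19* (chromosome II, 1820479 to 1823039, plus strand) stands near *math-40* and *math-39*, genes of another large family named for the MATH domain, which rose by 1.79 (adjusted p = 5.5e-05) and 2.63 (adjusted p = 8.5e-05), and near *math-41*, at 0.32 (adjusted p = 0.131). It overlaps *fbxa-3* and *linc-16* on the opposite strand over 66 exon bases, and *fbxa-3* was at 0.38 (adjusted p = 0.247).

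Several genes for the partners that join F-box proteins to a ligase rose in both *jy111* and *jy3*. Of 45 genes for Skp1-related adaptors, cullins, RING subunits and their regulators, 35 were tested. Against WT, 7 were called in *jy111* and 15 in *jy3*, all of them higher, beside 2.33% and 9.97% of all genes tested. The list was chosen with earlier results of these data known. In the double mutant *rbx-2* was the only one of 34 called by edgeR, and it was lower. *skr-5*, an adaptor gene, averaged 0.650 CPM in *jy111*, 13.3 CPM in *jy3*, 0.360 CPM in the double mutant and 0.224 CPM in WT, with log2 fold changes against WT of 1.56 (adjusted p = 0.020) in *jy111* and 5.82 in *jy3*. *skr-4* averaged 39.3 CPM in *jy111*, 294.9 CPM in *jy3*, 16.6 CPM in the double mutant and 15.1 CPM in WT. The log2 fold changes of *skr-4* against WT were 1.38 in *jy111* and 4.21 in *jy3*, and the difference between the mutants was 2.85. *cul-6*, the cullin gene, was at 1.68 (adjusted p = 0.000558) in *jy111* and 2.73 (adjusted p = 4.7e-05) in *jy3*, *rcs-1*, a RING gene, at 1.52 and 2.08, and *skr-3* at 0.76 and 1.66. Among the genes past a log2 fold change of 1 in *jy3* were also *skr-21* at 1.42 and *ula-1* at 1.18. The third F-box family gave 18 of 134 *fbxa* genes higher and 1 lower in *jy111* against WT, and 65 of 154 higher and 1 lower in *jy3* against WT. Over all genes tested, 2.33% were higher and 1.41% lower in *jy111*, and 9.97% higher and 11.3% lower in *jy3*. Whether *fbxa* genes differ from *fbxb* and *fbxc* genes in *jy111* was not tested.

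Other tissues were followed by marker lists. Of 6 oocyte and yolk markers, *vit-2* and *vit-6*, which encode yolk proteins made in the adult intestine, were higher in *jy3* than in WT, and the sum of the list ran from 1567 to 3123 CPM in *jy3* and 637 to 1008 CPM in WT. The sperm marker sum ran from 24.3 to 142.9 CPM in *jy3* and 51.1 to 147.3 CPM in WT. Of 6 intestinal markers 2 were higher and 1 lower in *jy3* against WT, of 4 neuronal markers 1 (*unc-119*) was higher, and no epidermal or muscle marker was called. The part of these shifts in the 10 called members was not tested.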

How the data were processed

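Total RNA of whole L4 animals had been sequenced as paired-end reads from poly(A)-selected stranded libraries. Per the labels and the study's methods, the authors aligned reads to the WS235 genome with Rsubread and deposited raw counts per gene from featureCounts. The sources used here do not state the tool versions, how strand was set or what was done with multi-matching reads. Symbols and positions came from RefSeq and Ensembl tables of WBcel235, and 45932 IDs were named through RefSeq. For 6 members the Ensembl names gave another *fbxb* or *fbxc* symbol, and the RefSeq symbol was used. Among these, *fbxc-1* is *fbxc-5* in the Ensembl names, and *fbxc-2* and *fbxc-3* are *fbxc-4*. The members and lists were chosen with earlier results of these data known, and members named for a pattern rather than for passing a test were chosen after their values were seen. Named by rule were members past the threshold in *pals-22(jy3)* against WT or the double mutant, the 5 highest per kilobase in WT, and ligase genes past it with a log2 fold change beyond 1.

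Each comparison was fitted on its 8 libraries with edgeR 4.0.16 in R 4.3.3 (TMM factors, quasi-likelihood F test, Benjamini-Hochberg adjustment over all genes kept at 0.5 CPM in 4 or more libraries). DESeq2 1.42.0, limma-voom (limma 3.58.1), other filters and scalings, a replicate block and leaving out each library were the alternatives. Sets of simulated counts were used to test the scripts. The labels call the libraries biological replicates. Deviations from the group means of same-numbered libraries had correlations of 0.807, 0.644, 0.119 and 0.284 for *jy111* and WT. They were 0.805, 0.611, 0.12 and 0.271 for *jy3* and WT, and 0.867, 0.679, 0.408 and 0.657 for *jy3* and *jy111*. Some libraries of unlike number went together more closely. Replicate 4 of *jy3* had 0.693 with WT replicate 2, and replicate 4 of *jy111* had 0.58 with WT replicate 2. These values do not settle whether the replicate numbers pair the libraries. The main fits had no block, and blocked values are given where they change a call.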

Additional observations from a re-analysis of the deposited data

Results flagged for a closer look

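Within each genotype the highest and lowest of 4 libraries were checked with Dixon's ratio, over 23 members and 2 family sums. This made 100 groups, of which 7 were picked out and 5 are expected by chance. *fbxb-72* failed the filter and was added to the tested members, and its WT replicate 2 level also sets the *fbxb* sum there. Both of these flags came with that choice and cannot be set against the number expected. *fbxb-72* stood at 31.83 CPM in WT replicate 2, against 0 to 0.0434 CPM in the other WT libraries, and with it the *fbxb* sum stood at 36.56 CPM, against 4.512 to 5.483 CPM. *fbxb-36* stood at 2.575 CPM in *pals-22(jy3)* replicate 1, the library with the highest germ-line marker sum of its group, against 0.3328 to 0.6409 CPM in the other *jy3* libraries. *fbxc-45* stood at 5.771 CPM in WT replicate 1, also the highest of its group in that sum, against 3.015 to 3.102 CPM. *fbxc-54* stood at 5.061 CPM in double mutant replicate 2, against 3.282 to 3.427 CPM. *fbxc-58* stood at 3.712 CPM in *pals-25(jy111)* replicate 2, against 1.786 to 2.053 CPM. The *fbxb* sum of *pals-25(jy111)* replicate 2 was low, at 4.651 CPM, against 5.655 to 5.856 CPM. The cause was not tested for any of them.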

How the results depend on the processing

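For the 26 calls of single members, no direction changed under the alternatives run, 431 values kept their side of the threshold and 11 lost it. The counts of members called moved with the filter, the replicate block and *jy3* replicate 1. With no filter, 16 of 94 members were higher and 2 lower in *jy3* against WT (7.83% and 4.46% of all genes), 17 of 94 higher and 1 lower against the double mutant (7.83% and 4.28%), and 14 higher against *jy111* (5.58%). With 0.5 CPM in at least 1 library, 14 of 33 were higher and 1 (*fbxc-36*) lower against the double mutant (11.1% and 10.6% of all genes). Members added by this filter, such as *fbxb-65* and *fbxb-98*, entered it only through *jy3* libraries. With the same filter the adjusted p of *fbxc-52* against WT was 0.0516. One member was lower in *jy3* than in the double mutant under DESeq2, limma-voom and the fit of all 16 libraries (*fbxc-44*), and 1 under filterByExpr (*fbxc-36*). In this order the fits called 12.4%, 11.4%, 13.4% and 10.9% of all genes lower. DESeq2 called 1 member, *fbxc-48*, higher in the double mutant than in WT, beside 8.1% of all genes.

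With the replicate block, 13 members were higher in *jy3* against WT, 12 were higher and 5 lower in *jy3* against *jy111*, and 0 were called in *jy111* against WT. In the comparisons with the double mutant, the correlations of same-numbered libraries fell as low as 0.075 and −0.155. There the block gave 9 higher in *jy3* against the double mutant, beside 11.6% of all genes, and 0 in the double mutant against WT.

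Over the fits without 1 of the libraries, 9 to 11 members were higher and 0 to 1 lower in *jy3* against WT, 8 to 11 higher and 0 to 4 lower against the double mutant, and 7 to 11 higher and 0 to 1 lower against *jy111*. All of these lower calls came without *jy3* replicate 1. There were 0 to 1 higher in the double mutant against WT (*fbxc-48*, without WT replicate 1) and 0 to 0 in *jy111* against WT. The shares of all genes called in the fits without a library were not counted. Under the RLE scaling, 1845 genes were higher and 1276 lower in *jy3* against WT (1476 and 1675 under TMM), and 2028 higher and 1182 lower against the double mutant (1678 and 1657 under TMM). Depth limits the rest: members with under 11 counts in all cannot show a change of ordinary size.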

Other observations

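Neighbours of the rare *fbxb* genes with reads mostly in *pals-22(jy3)*, up to 3 on each side, were looked up after the values were seen. Of the neighbours tested in *jy3* against WT, edgeR called higher 2 of 3 for *fbxb-98*, 3 of 3 for *fbxb-65*, 3 of 3 for *fbxb-102* and 1 of 6 for *fbxb-87*, and none lower. Over all genes tested, 9.97% were called higher. *C43D7.1*, *C43D7.4* and *chil-28* lay under 0.5 CPM in every WT library. These genes entered the test only through the *jy3* libraries, so their calls rest on the group in which they were high. *fbxb-98* lies near *math-15* and *math-14*, whose log2 fold changes in *jy3* against WT were 6.07 and 7.46 (edgeR, adjusted p = 1.79e-05 for *math-14*), and near *C16C4.18*, at 0.32 (adjusted p = 0.548). *fbxb-65* lies near *C43D7.1*, at 4.17 (adjusted p = 0.000735), and *C43D7.4*, with means of 143.5 CPM in *jy3* and 0.00954 CPM in WT, where 1 library of 4 had any read. *fbxb-102* lies near *arrd-9*, at 3.15 (adjusted p = 0.000516), and *chil-28*, with a mean of 7.24 CPM in *jy3* and no count in any WT library. *fbxb-87* lies near *unc-119*, at 0.52 (adjusted p = 0.0122), *athp-1*, at 0.25 (adjusted p = 0.0654), and *C44B9.3*, at −1.61 (adjusted p = 0.0552). Whether a member and its neighbours share control was not tested.

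A few rare members moved the other way without the filter on low counts. *fbxb-7* had 1, 2, 1 and 0 counts in *jy3*, against 7, 3, 8 and 5 counts in WT (log2 fold change −2.89, adjusted p = 0.0239). *fbxb-74* had 4, 2, 1 and 2 counts in *jy3*, against 2, 8, 8 and 5 counts in WT (−1.74, adjusted p = 0.0393), with overlap between 2 and 4 counts. *fbxc-36* had 2, 3, 2 and 9 counts in *jy3*, against 10, 12, 15 and 44 counts in the double mutant, while WT had 1, 14, 7 and 8 counts.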
